A study of Mus musculus with 6 samples.

Results

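Membrane excitability of the muscle fibre was followed through 7 genes: the chloride channel gene Clcn1, the sodium channel gene Scn4a, the potassium channel genes Kcnj2, Kcnj12 and Kcnj11, and the sodium pump genes Atp1b1 and Fxyd1. They were taken by symbol from the 23282 rows of the count tables, and each had 1 row. Kcnj2 was chosen by its measured level, the lower mean CPM with inotodiol in these same libraries, so its difference is given as a description with no test. The other 6 genes were listed for their function. RNA was sequenced from gastrocnemius muscle of 20-month-old male wild-type mice of the strain C57/BL6J. In 1 group, 3 mice were given inotodiol, a triterpenoid of the chaga mushroom, by mouth every day for 10 weeks at 0.35 mg/kg, and 3 control mice received a vehicle of polyethylene glycol (40%), Tween 80 (5%) and normal saline (0.9%). Whether inotodiol was given in this vehicle is not stated in the labels. The series title names age-related muscle wasting and the liver X receptor beta, and the comparison asks which transcripts differ between treated and control old muscle.

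A muscle fibre fires when its surface membrane and transverse tubules depolarise, and it must return to rest quickly to be able to fire again. The voltage-gated sodium channel carries the upstroke, the chloride conductance and the inward rectifier potassium channels hold the membrane near its resting potential, and the sodium pump restores the ion gradients that activity runs down. Inherited faults of these channels cause myotonia and periodic paralysis. The pump is made of a catalytic alpha subunit and a beta subunit that carries it to the membrane, and small FXYD proteins tune its affinity for sodium.

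Libraries held from 8961893 to 9953764 counts, and values are given as CPM, the counts of a gene scaled to a common library size, after TMM scaling, which corrects for differences in library composition. All 7 genes had at least 88 counts in every library and passed the filter on low counts with 11700 of the 23282 rows. The 10 muscle fibre markers, among them Acta1, Ckm and Pvalb, summed to 143233 to 151742 CPM in inotodiol muscle. In vehicle muscle they summed to 137620 to 141308 CPM. The 7 heart muscle markers summed to 71.1 to 81.4 CPM in inotodiol muscle and 54.1 to 104 CPM in vehicle muscle. Of these 7, Myl7 and Nppb had 0 counts in all libraries, and 3 passed the filter on low counts. Libraries also differed in the precursor ribosomal RNA Rn45s, which took 10.2%, 9.56% and 4.33% of counts in inotodiol mice 1 to 3 and 3.97%, 6.82% and 4.38% in vehicle mice 1 to 3. Inotodiol 1, inotodiol 2 and vehicle 2 thus stood apart from the other libraries, across the groups, a split made after the values were seen. Hepatocyte markers (14 genes, all 14 with a log2 fold change above 0) summed to 149 to 776 CPM in inotodiol muscle and 66.3 to 118 CPM in vehicle muscle. Exocrine pancreas markers (12 genes) summed to 131 CPM in inotodiol 1 and at most 2.70 CPM in the other libraries. No marker of these lists was at 0 in all libraries unless named.

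The stretches upstream of 3 of the genes are shown because Kcnj2 had the largest difference and because Clcn1 and Atp1b1 had the next largest and share transcript ends with a neighbour, described below. RefSeq promoters on GRCm38.p6 were matched for 6 of the 7 genes. Each line gives the 250 bases before the transcript start, 5′ to 3′ on the gene's strand. Capitals mark every match, on either strand, to CACGTG (an E-box core), GGGCGG (the GC box) or CTANNNNTAG (a motif like that of the MEF2 factors of muscle).
Kcnj2, chr11:111065914-111066163, plus strand: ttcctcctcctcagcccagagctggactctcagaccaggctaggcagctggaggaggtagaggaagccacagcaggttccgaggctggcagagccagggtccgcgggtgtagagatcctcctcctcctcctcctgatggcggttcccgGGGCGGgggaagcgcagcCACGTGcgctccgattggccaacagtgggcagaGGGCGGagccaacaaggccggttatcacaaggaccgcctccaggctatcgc
Clcn1, chr6:42286435-42286684, plus strand: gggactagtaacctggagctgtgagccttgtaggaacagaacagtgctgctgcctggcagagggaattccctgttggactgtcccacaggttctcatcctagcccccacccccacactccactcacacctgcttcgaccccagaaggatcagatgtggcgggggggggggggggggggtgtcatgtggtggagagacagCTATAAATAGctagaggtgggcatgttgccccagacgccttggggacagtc
Atp1b1, chr1:164458356-164458605, minus strand: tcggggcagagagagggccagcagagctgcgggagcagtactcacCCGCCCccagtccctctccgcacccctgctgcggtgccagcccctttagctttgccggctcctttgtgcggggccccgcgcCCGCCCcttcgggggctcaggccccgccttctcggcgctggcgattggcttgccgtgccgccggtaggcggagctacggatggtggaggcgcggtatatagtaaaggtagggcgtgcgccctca
Kcnj2 held CACGTG once, 84 bases before the start, and this motif was found in 6.02% of 32851 promoter windows of the same length. Clcn1 held the MEF2-like motif once, 51 bases before the start, where it overlaps a TATAAA; 12.4% of windows held that TATA box and 3.202% held the MEF2-like motif. The GC box was found in 32.7% of windows, and Kcnj2 and Atp1b1 held 2 matches each. These matches describe letters only, and binding was not measured.

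None of the 6 genes listed for function passed the test between inotodiol and vehicle. In whole muscle a smaller number of cells of a type and less RNA in each of them cannot be told apart. Of the 6 genes listed for function, 0 reached an adjusted p of 0.05 by edgeR with quasi-likelihood fits, beside 0% of the 11700 genes tested, and DESeq2 and limma-voom also called 0 of the 6. At an unadjusted p under 0.05 there were 2 of the 6, Atp1b1 and Fxyd1, both higher with inotodiol, where 4.87% of all genes tested lay under that limit (2.67% higher, 312 genes, and 2.21% lower, 258 genes). With inotodiol 3 left out, Clcn1 alone of the 6 was under that limit, without vehicle 1 Fxyd1 alone, without vehicle 3 Atp1b1 alone, and without vehicle 2 Clcn1 and Atp1b1. Scaled by library totals alone, 0 of the 6 were under it, with unadjusted p of 0.058 for Atp1b1 and 0.20 for Fxyd1 in edgeR. With that scaling 138 of all genes were higher and 589 lower at that limit, and the middle log2 fold change of all genes was -0.12. All 6 had a log2 fold change above 0, from 0.11 to 0.47, against 49.9% of all genes tested. With Kcnj2 included, the median of the 7 was 0.20, beside -0.00076 over all genes tested. Of the fibre marker genes, 8 of 10 for muscle fibre, 10 of 10 for fast fibre and 4 of 8 for slow fibre lay above 0. The medians of these lists were 0.11, 0.085 and 0.00024, and the first and second lists share genes. The part of fibre RNA in the direction of the 6 genes was not tested. The groups did not overlap for 2 of the 7 genes, Kcnj2, which was chosen for its difference, and Fxyd1, where 10.4% of all genes tested had groups that did not overlap, 5.15% higher and 5.26% lower with inotodiol.

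**Figure D1:**
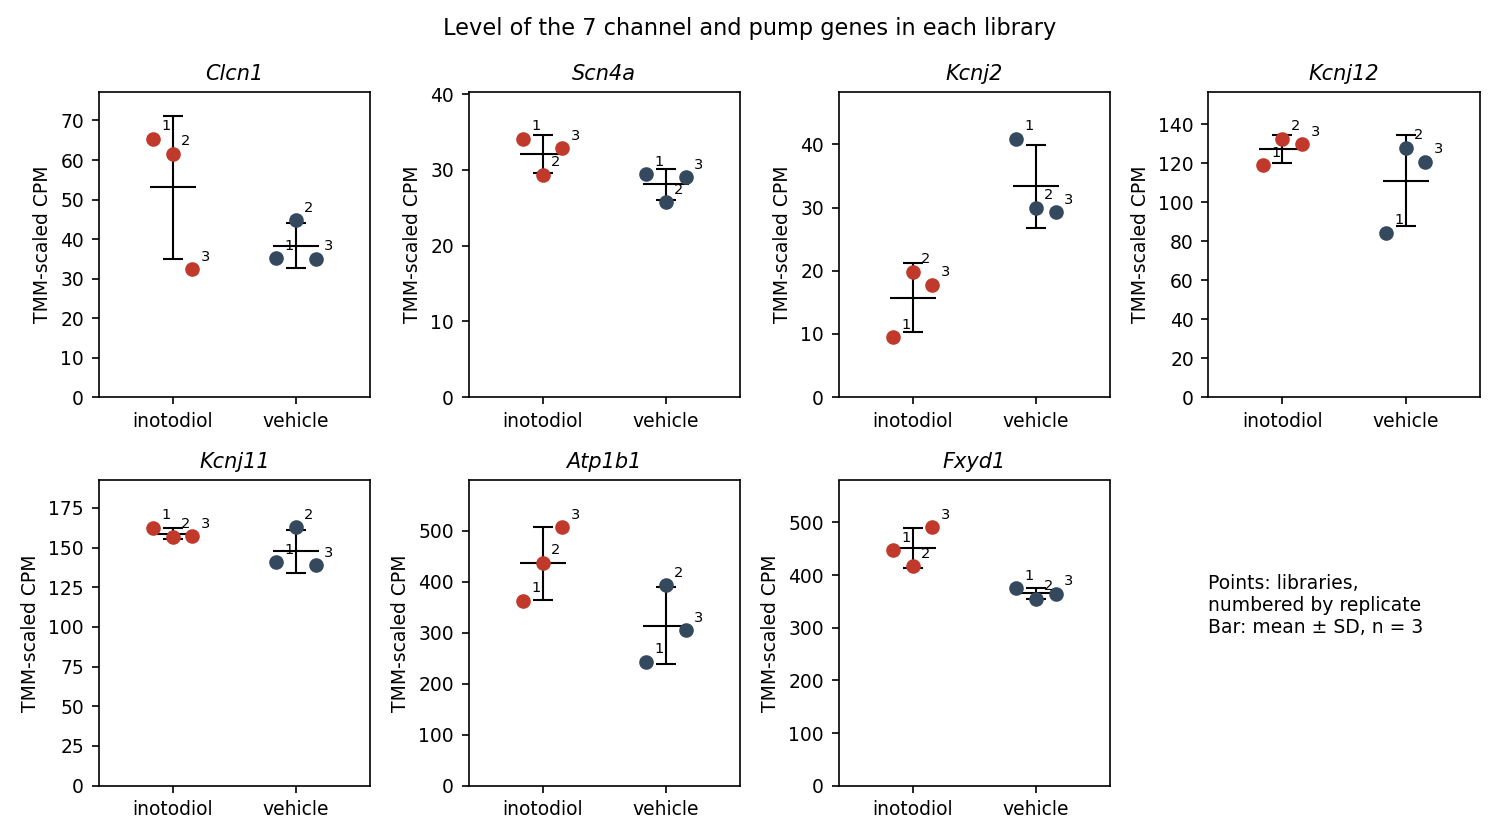
Level of each gene in TMM-scaled CPM (vertical axes, from 0) in 3 inotodiol and 3 vehicle libraries, with points numbered by replicate and bars for the mean ± SD. Kcnj2 lies between 9.53 and 19.8 CPM in inotodiol and between 29.2 and 40.9 CPM in vehicle libraries, and Fxyd1 is the other gene whose groups do not overlap.

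Clcn1 encodes the chloride channel that gives skeletal muscle most of its resting conductance (chromosome 6, 42286685 to 42315756, plus strand of GRCm38). It had 65.4, 61.6 and 32.3 CPM in inotodiol mice 1 to 3 and 35.1, 44.8 and 35.0 CPM in vehicle mice 1 to 3. In inotodiol mice 1 and 2 it lay above every vehicle mouse, and in inotodiol 3 below every one of them, so the groups overlapped. The log2 fold change was 0.47 ± 0.24 (SE; 95% interval -0.037 to 0.98), with an adjusted p of 0.96 in edgeR. Among the 3 libraries rich in Rn45s (1 of them vehicle) the difference in mean log2 CPM was 0.50, among the other 3 (1 of them inotodiol) it was -0.12, and with this split of libraries as a term the log2 fold change was 0.20. Clcn1 itself was 0.72 higher on the log2 scale in the Rn45s-rich libraries than in the others, and the part of Rn45s in its level was not tested. Leaving out inotodiol 3 gave a log2 fold change of 0.73, and leaving out inotodiol 1 gave 0.29.

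Scn4a encodes the pore-forming subunit of the sodium channel that starts the action potential of adult muscle (chromosome 11, 106318592 to 106353288, minus strand). It had 34.1, 29.4 and 32.8 CPM in inotodiol mice 1 to 3, against 29.4, 25.8 and 29.0 CPM in vehicle mice 1 to 3. Of the inotodiol values, 2 lay above all vehicle values and inotodiol 2 lay among them. Its log2 fold change was 0.19 ± 0.17, the 95% interval ran from -0.18 to 0.57, and the adjusted p was 0.97 in edgeR. With library totals alone it was 0.074. The standard deviation was 7.68% of the mean in inotodiol muscle and 7.18% in vehicle muscle, below the medians of 16.4% and 15.5% over genes averaging 5 CPM or more in that group.

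The inward rectifier Kcnj2 was the 1 gene of the group with a lower mean in inotodiol muscle. It encodes the channel pore that in muscle fibres clamps the membrane near the potassium equilibrium potential (chromosome 11, 111066164 to 111076821, plus strand). Its level was 9.53, 19.8 and 17.8 CPM in inotodiol mice 1 to 3, against 40.9, 29.97 and 29.2 CPM in vehicle mice 1 to 3. The lowest value was that of inotodiol 1 and the highest that of vehicle 1. The group means were 15.7 ± 5.46 CPM with inotodiol and 33.4 ± 6.54 CPM with vehicle (SD, n = 3), and the log2 fold change was -1.08 ± 0.26 (SE), a level 2.12-fold higher in vehicle muscle. These libraries held 88, 179 and 174 Kcnj2 counts with inotodiol and 389, 278 and 298 with vehicle. In unscaled CPM, inotodiol 2 had 18.4 (exact 95% binomial interval 15.8 to 21.4) and vehicle 2 had 30.1 (26.6 to 33.8), the closest pair between the groups, and these intervals cover counting error only.

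With 1 library left out, the log2 fold change of Kcnj2 lay between -1.28, without inotodiol 2, and -0.83, without inotodiol 1; its sign is set by the choice of the gene and by groups that do not overlap. Inotodiol 1, with the least Kcnj2, was also the library with the most hepatocyte (776 CPM) and pancreas (131 CPM) marker RNA, and their part in its level was not tested. Kcnj2 is also transcribed in cells of vessel walls. The 9 smooth muscle and pericyte markers (6 above 0) summed to 2197 to 2736 CPM in inotodiol muscle and 2279 to 2409 CPM in vehicle muscle. The 11 endothelial markers (8 above 0) summed to 179 to 208 CPM in inotodiol muscle and 161 to 195 CPM in vehicle muscle. Macrophage markers (12 genes, 3 of them with a log2 fold change above 0, median -0.49) summed to 77.0 to 246 CPM with inotodiol and 121 to 345 CPM with vehicle. Markers of fibroblasts and fibro-adipogenic progenitors (9 genes, 1 above 0, median -0.22) summed to 1040 to 1217 CPM with inotodiol and 1066 to 2023 CPM with vehicle. All 4 ranges overlapped between the groups, and the part of these cells in the level of Kcnj2 was not tested.

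Kcnj12, which encodes a close relative of the Kcnj2 channel and can form mixed tetramers with it, did not share its profile (chromosome 11, 61022564 to 61071131, plus strand). Kcnj12 stood at 119, 133 and 129.95 CPM in inotodiol mice 1 to 3 and at 84.3, 128 and 121 CPM in vehicle mice 1 to 3. Vehicle 1 alone was low, and the other 5 libraries lay between 119 and 133 CPM. The log2 fold change was 0.20 ± 0.16 (95% interval -0.16 to 0.55; adjusted p 0.96 in edgeR) and came to 0.032 without vehicle 1 and 0.32 without vehicle 2. Per Kcnj12 count there were 0.080, 0.15 and 0.14 Kcnj2 counts in inotodiol mice 1 to 3 and 0.49, 0.23 and 0.24 in vehicle mice 1 to 3. Vehicle 1 was the library with the most Kcnj2 and the least Kcnj12. None of the 2714 stretches of 36 bases in Kcnj12 transcripts occurred in transcripts of another gene, and 12 of 5393 did for Kcnj2.

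Kcnj11 encodes the pore of the potassium channel that ATP closes, which opens when a working fibre runs short of energy (chromosome 7, 46093953 to 46100764, minus strand). Its range over the 6 libraries, 0.23 on the log2 scale, was the narrowest of the 7 genes, while the spread within vehicle muscle was smaller for Fxyd1 (2.73% of the mean) than for Kcnj11 (9.04%). Values were 162, 157 and 157 CPM in inotodiol mice 1 to 3 and 141, 163 and 139 CPM in vehicle mice 1 to 3, with vehicle 2 above all inotodiol mice. The log2 fold change was 0.11 ± 0.13, with a 95% interval of -0.17 to 0.38 and an adjusted p of 0.99 in edgeR, and with library totals alone it was -0.0098, of the other sign. Its regulatory partner Abcc9, the sulfonylurea receptor of muscle and vessels, averaged 139 CPM with inotodiol and 143 CPM with vehicle, a log2 fold change of -0.040 ± 0.15. The vascular pore gene Kcnj8 stood at -0.085 ± 0.25, and Abcc8, the receptor best known from beta cells, at -0.30 ± 0.39.

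**Figure D2:**
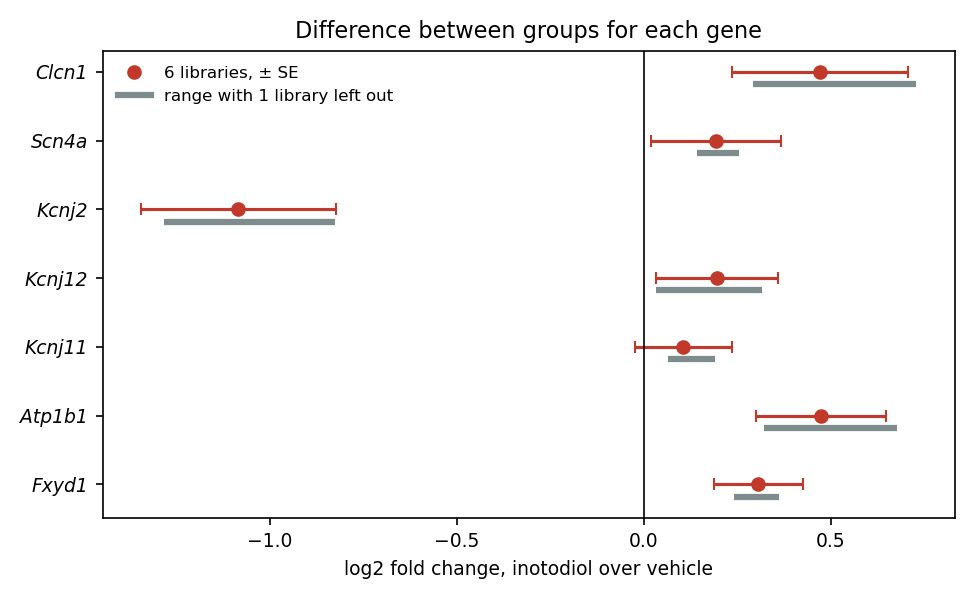
Log2 fold change of inotodiol over vehicle (horizontal axis) for the 7 genes, as a point with its standard error from all 6 libraries, and as a grey bar for the range with 1 library left out. Kcnj2 lies at -1.08 and the other 6 genes lie from 0.11 to 0.47, and the grey bar of Kcnj12 comes nearest to 0, at 0.032.

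Atp1b1 encodes a beta subunit of the sodium pump (chromosome 1, 164437109 to 164458355, minus strand). It had 362, 437 and 507 CPM in inotodiol mice 1 to 3, against 243, 393 and 305 CPM in vehicle mice 1 to 3. Inotodiol mice 2 and 3 lay above all vehicle mice, and inotodiol 1 lay between vehicle 3 and vehicle 2. The log2 fold change was 0.47 ± 0.17 (95% interval 0.10 to 0.85) and the adjusted p was 0.96 in edgeR. With each library left out it ranged from 0.32 without vehicle 1 to 0.68 without vehicle 2. The difference was 0.020 on the log2 scale among the Rn45s-rich libraries and 0.90 among the others, while with the split as a term the log2 fold change was 0.46.

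The counts of Atp1b1 cannot be separated from those of its neighbour Nme7, a gene of the nucleoside diphosphate kinase family on the opposite strand. In GENCODE M21 the last exon of Atp1b1, in its 3′ untranslated region, and the last exons of Nme7 share 575 bases between 164437109 and 164437725 of chromosome 1, and the strand setting of the counting is not given in the sources used here. Of the 3042 stretches of 36 bases in Atp1b1 transcripts, 506 (16.6%) also occurred in Nme7 transcripts, read on either strand. This is a share of transcript sequence and not of reads. The shared bases include the 3′ end of Atp1b1, and how many reads fell in them was not measured. Nme7 had 245, 269 and 365 CPM in inotodiol mice 1 to 3 and 171, 248 and 200.2 CPM in vehicle mice 1 to 3, and its 6 libraries ranked in the same order as those of Atp1b1. The ratio of Nme7 to Atp1b1 counts was 0.67, 0.62 and 0.72 in inotodiol mice 1 to 3 and 0.71, 0.63 and 0.66 in vehicle mice 1 to 3. Nme7 had a log2 fold change of 0.51 ± 0.17, with an adjusted p of 0.91 in edgeR. Nme7 and Fam131b were named for their overlap with a listed gene.

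Clcn1 has such a neighbour in Fam131b, but only a longer annotated Clcn1 transcript reaches it, sharing 445 bases between 42315312 and 42315756 of chromosome 6. Fam131b had 61.5, 48.7 and 54.8 CPM in inotodiol mice 1 to 3, all above its 24.3, 36.7 and 36.6 CPM in vehicle mice 1 to 3. Its log2 fold change was 0.76 ± 0.19, with an adjusted p of 0.58 in edgeR. Fam131b did not follow Clcn1 from library to library. Inotodiol 3, the library with the least Clcn1, had 1.70 Fam131b counts per Clcn1 count, against 0.94 and 0.79 in inotodiol mice 1 and 2 and 0.69, 0.82 and 1.04 in vehicle mice 1 to 3. No gene overlapped the other 5 genes in the annotation.

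**Figure D3:**
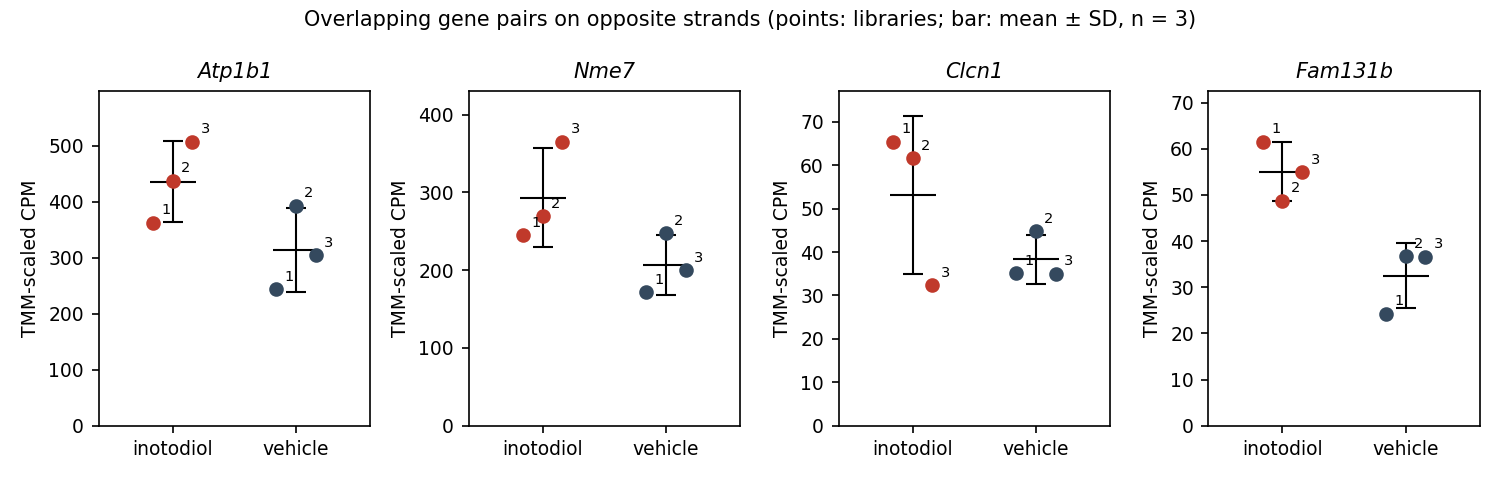
Level in TMM-scaled CPM (vertical axes, from 0) of Atp1b1 and Clcn1 and of their neighbours on the opposite strand, Nme7 and Fam131b, in inotodiol and vehicle libraries numbered by replicate, with bars for the mean ± SD. Nme7 and Atp1b1 keep a count ratio of 0.62 to 0.72 in all 6 libraries, whereas the ratio of Fam131b to Clcn1 runs from 0.69 to 1.70.

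Fxyd1 encodes phospholemman, the small membrane protein that restrains the sodium pump until it is phosphorylated (chromosome 7, 31051678 to 31057199, minus strand). Its level was 447, 417 and 491 CPM in inotodiol mice 1 to 3 and 375, 355 and 365 CPM in vehicle mice 1 to 3. Every inotodiol value lay above every vehicle value, as for 5.15% of all genes tested in this direction. The means were 452 ± 37.4 CPM with inotodiol and 365 ± 9.96 CPM with vehicle (SD, n = 3). The difference was 0.31 ± 0.12 on the log2 scale (95% interval 0.051 to 0.56), a 1.24-fold higher level with inotodiol, and did not pass the test (unadjusted p 0.022, adjusted p 0.96 in edgeR). It was 0.28 among the Rn45s-rich libraries and 0.41 among the others, from 0.24 to 0.36 with 1 library left out, and 0.19 with library totals alone. The summed muscle fibre markers did not overlap between the groups either and were higher with inotodiol (8 of 10 genes with a log2 fold change above 0), as were the 9 Schwann cell markers (8 of the 8 tested above 0), at 116 to 210.2 CPM with inotodiol and 82.0 to 111 CPM with vehicle, and their part in the level of Fxyd1 was not tested.

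Across libraries the 7 profiles differed in width. From the lowest to the highest library, Kcnj2 spanned 2.08 on the log2 scale, Atp1b1 1.06, Clcn1 1.01, Kcnj12 0.65, Fxyd1 0.47, Scn4a 0.40 and Kcnj11 0.23. The closest pair was Scn4a and Fxyd1, whose centred log2 CPM differed by a root mean square of 0.089 over the 6 libraries, and the most distant was Clcn1 and Kcnj2, at 0.97. Vehicle 1 held the lowest Atp1b1 and Kcnj12 and the highest Kcnj2.

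**Figure D4:**
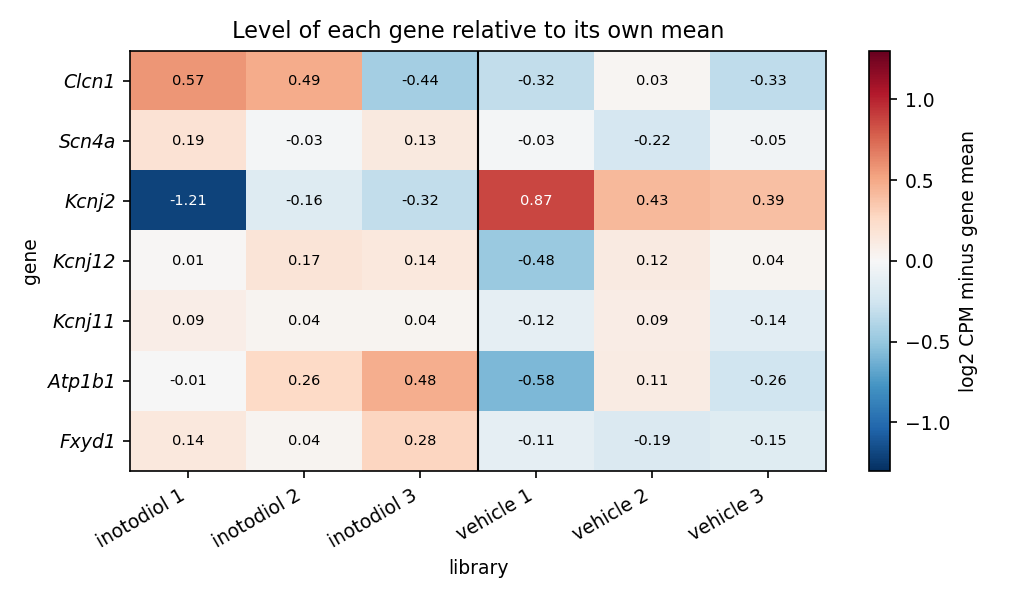
Log2 CPM of each gene (rows) in each library (columns, inotodiol left of vehicle) minus the gene's mean over the 6 libraries, with red above and blue below the mean. Kcnj2 runs from -1.21 in inotodiol 1 to 0.87 in vehicle 1, and Clcn1 is highest in inotodiol 1 and 2.

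By the same measure, the genes most like each member were sought over the 6 libraries among 8154 genes whose mean over them was at least 5 CPM. The nearest to Kcnj2 were Ttc9 (0.21), Gabpa (0.22) and Snx1 (0.23). Because Kcnj2 was chosen for its lower level with inotodiol, genes with a like profile are lower there by construction. Ttc9 had 2.38, 5.76 and 6.45 CPM in inotodiol mice 1 to 3 and 11.3, 6.68 and 7.84 CPM in vehicle mice 1 to 3, at few counts. The gene most like Clcn1 was Myh8, the perinatal myosin heavy chain, at a distance of 0.10, with 387, 350 and 167 CPM in inotodiol mice 1 to 3 and 189.5, 289 and 192 CPM in vehicle mice 1 to 3. Luc7l and Itsn2 followed for Clcn1, both at 0.11. For Atp1b1 the nearest were Pqlc1 (0.071), the overlapping Nme7 (0.081) and Foxc1 (0.10). The closest to Kcnj12 were Med16 (0.028), Jun (0.035) and Mybph (0.055), those to Kcnj11 were Dad1 (0.026), Slc30a9 (0.040) and Naa16 (0.040), those to Scn4a were Skp1a (0.038), Pfdn1 (0.039) and Rpl22 (0.043), and those to Fxyd1 were Ctnnbl1 (0.036), Mrps17 (0.046) and Ndufa13 (0.050). A member with a narrow range has close neighbours by this measure more easily than one with a wide range.

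Other genes of membrane excitability, from 6 lists, were divided evenly in direction. Of 61 tested genes beside the 7, 31 had a log2 fold change above 0 and 30 below, with a median of 0.022, and 0 passed edgeR's test. At an unadjusted p under 0.05 there were 2, both higher, and 5 had groups that did not overlap (4 higher and 1 lower), which is 8.20% of them beside the 10.4% of all genes tested.

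Among the sodium pump genes, 5 of 8 lay above 0 and 3 below, and none passed. The beta subunit gene Atp1b2 stood at a log2 fold change of 0.086 ± 0.16. The beta subunit gene Atp1b3 had 21.3, 25.9 and 21.5 CPM in inotodiol mice 1 to 3 and 34.2, 24.0 and 31.0 CPM in vehicle mice 1 to 3, a log2 fold change of -0.38 ± 0.20 (adjusted p 0.96 in edgeR). The values for Atp1b4 and the FXYD gene Fxyd3 were -0.24 ± 0.40 and 0.37 ± 0.62, both from a few CPM.

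Among the other sodium channel genes, 4 of 7 lay above 0. Scn4b, which encodes an accessory subunit, stood at a log2 fold change of -0.39 ± 0.20, with 57.3, 114 and 80.0 CPM in inotodiol mice 1 to 3 and 116, 106 and 107 CPM in vehicle mice 1 to 3. Scn2a1 (0.77 ± 0.46) was higher and Scn7a (-0.38 ± 0.24) lower without overlap between the groups. Scn2a1 had 8.23, 3.99 and 3.79 CPM in inotodiol mice 1 to 3 and 2.31, 3.45 and 3.63 CPM in vehicle mice 1 to 3. Scn3a stood at -1.01 ± 0.82, from 0.44 to 3.15 CPM over the libraries.

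Of the genes listed with Clcn1, CLC genes and Ostm1, 2 of 5 lay above 0. Clcn2 stood at -0.25 ± 0.30, Clcn4-2 at 0.096 ± 0.15, Clcn7 at 0.083 ± 0.32 and Ostm1, which encodes the partner of the lysosomal Clcn7 protein, at -0.21 ± 0.37. All 3 other inward rectifier and receptor genes tested, Kcnj8, Abcc8 and Abcc9, lay below 0.

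Of 21 other potassium channel genes 13 lay above 0. Kcnc1, a fast delayed rectifier, had 33.9, 36.3 and 25.8 CPM in inotodiol mice 1 to 3, just above its 20.2, 25.5 and 25.5 CPM in vehicle mice 1 to 3, a log2 fold change of 0.43 ± 0.20 (adjusted p 0.96 in edgeR). Kcnc1 is also transcribed in neurons. The Schwann cell markers described above summed to 120, 116 and 210 CPM in inotodiol mice 1 to 3. In vehicle mice 1 to 3 these markers summed to 102, 82.0 and 111 CPM. The part of nerve in the level of Kcnc1 was not tested. Kcna6 stood at -0.94 ± 0.49 and Kcnk6, with 0 counts in inotodiol 3, at -0.999 ± 0.97, both from a few CPM. Among 17 anchor and regulator genes, 7 lay above 0. Ank1, which links membrane proteins to the spectrin skeleton, stood at 0.42 ± 0.18, Prkce at 0.44 ± 0.22, Nedd4l at -0.23 ± 0.17 and the spectrin gene Sptb at -0.17 ± 0.15, and none of these passed the test (adjusted p 0.96 to 0.97 in edgeR).

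**Figure D5:**
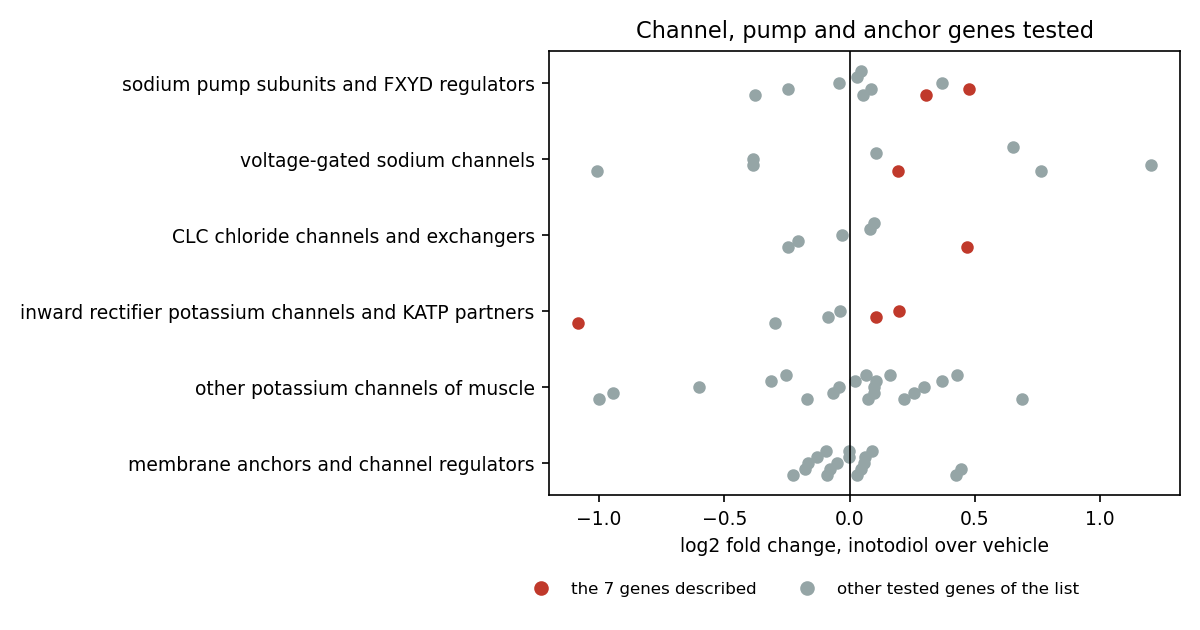
Log2 fold change of inotodiol over vehicle (horizontal axis) for every tested gene of 6 lists (rows), with the 7 genes described in red and the others in grey; vertical offsets within a row carry no value. The 61 grey points have a median of 0.022 and lie on both sides of 0, and Kcnj2 lies at -1.08 at the left of its list.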

How the data were processed

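Whole-number read counts per gene symbol, 1 table per library, were deposited by the authors with no normalization that the values show. Bowtie2, bedtools and the mm10 build are named in the submitters' processing notes; which versions, annotation, strand setting and rule for multiply matching reads were used is not given here by any source. The library kit was Lexogen Quant-Seq, on total RNA, per the labels' protocols. Whether counts rise with transcript length was not settled, so levels were not compared between genes. Count ratios of gene pairs were compared only from library to library. Total counts were 8961893 to 9953764 per library, and no 2 libraries agreed within sampling noise.

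Genes were filtered with filterByExpr (minimum count 10, minimum total 15), TMM-scaled and fitted in edgeR 4.0.16 under R 4.3.3 (two-sided quasi-likelihood test on group alone). P-values were adjusted by Benjamini-Hochberg over 11700 genes, at 0.05; limma 3.58.1 and DESeq2 1.42.0 were alternatives. Log2 CPM used a prior count of 2. P-values measure the spread among 3 animals per group, which the labels mark as biological replicates. The fit was tested on simulated data.

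The members and gene lists were chosen with earlier results of these data known. Beside the members, up to 4 genes per list with the smallest p and at least 1 CPM were named, with partner genes and the 3 genes most like each member; some of these genes are not reported here. Gene spans are from GENCODE M21 on GRCm38, the assembly of mm10.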

Additional observations from a re-analysis of the deposited data

How the results depend on the processing

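The count of genes called was 0 with RLE, upper-quartile and library-total scaling, with at least 1 CPM in all 6 samples, with limma-voom, without Rn45s, hepatocyte and pancreas genes and, in a fit added after the data were seen, with the Rn45s split as a term. It was 95 with no filter on low counts, 1 with DESeq2, and from 0 to 25 with 1 library left out, where the 25 came without inotodiol replicate 3; the causes were not tested. None of these calls was 1 of the 6 genes listed for function, whose lowest adjusted p was 0.21, for Atp1b1 with no filter. With no filter 904 genes, against 570, had an unadjusted p under 0.05.

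Of 96 log2 fold changes of the 6 genes under 16 alternatives, 95 kept the sign. The other was Kcnj11 at -0.0098 with library totals alone, where the median of all genes was -0.12. Over all alternatives Kcnj2 ranged from -1.28 to -0.83, and with 1 library left out over the same range. The replicate number as a block left 0 genes called, 0 of the 6 among them, with Kcnj2 at -1.12; deviations of same-numbered libraries correlated at -0.16, 0.16 and 0.075, so the numbers were not taken as pairs. Libraries of this depth and 3 mice per group gave a median standard error of 0.28 over all genes and 0.17 over the 7.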
